A study of Mus musculus with 2 samples.

Results

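The MHC class I presentation genes described here are 10 of the 33904 genes counted in single-cell RNA-seq of mouse dorsal skin, namely B2m, H2-D1, H2-K1, H2-T23, Tap1, Tap2, Tapbp, Psmb8, Psmb9 and Nlrc5. They were taken by symbol, and each symbol has a single row in both count matrices, so that all 10 are accounted for. Skin came from 7-week-old female C57BL/6J mice whose backs were depilated 24 h before the first application. The Ctrl mice received 100% ethanol, the vehicle. The AD mice received MC903 (calcipotriol, an analogue of vitamin D that brings on a dermatitis like atopic dermatitis) at 4.5 nmol per daily application. Both tissues were taken on day 10, and all mice of both groups shared the depilation and the solvent. Each condition has 1 library, and how many mice were behind a library is not given. The question of the study touched here is which skin cells take part in the inflammation, dermal fibroblasts (dFBs) above all.

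MHC class I molecules display short peptides from inside the cell to CD8 T cells and to receptors of NK cells. The heavy chains, H2-D1 and H2-K1 (classical) and H2-T23 (the non-classical Qa-1), pair with the light chain B2m. Tap1 and Tap2 together form the transporter that moves peptides into the endoplasmic reticulum, and Tapbp (tapasin) helps to load them. Psmb8 and Psmb9 are subunits that replace Psmb5 and Psmb6 in the immunoproteasome, which is induced by interferon gamma, and Nlrc5 is a transactivator of class I promoters. Nearly all nucleated cells carry class I, while the hair bulb is known in textbooks as a site where it is low.

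With 1 library per condition no test was possible and no p-value is given. Levels are CPM (counts scaled to a common total), for which the unique molecular identifiers (UMIs, each standing for 1 transcript molecule) of all cells of a type were added up and divided by that type's UMIs of all genes. Intervals are 95% and cover counting error only. A gene was called higher or lower when the log2 ratio of CPM, with 1 CPM added to both, was at least 1 or at most -1 and the gene had at least 10 CPM on either side. The libraries use 3′ tags, whose yield differs between genes, so levels are compared between cells and not between genes. Filtering kept 11399 of 12598 Ctrl barcodes and 8179 of 8778 AD barcodes, with 105195951 and 61645227 UMIs and medians of 7813 and 6330 UMIs per cell. Marker genes placed 88.3% of cells in a type in Ctrl and 79.7% in AD, 35 barcodes occur in both libraries, and 1368 Ctrl and 594 AD cells lay near the boundary to another type. The gates hold 5155 Ctrl and 4105 AD dFBs, 1391 and 402 basal keratinocytes (KCs), 162 and 161 blood and 323 and 320 lymphatic endothelial cells, 241 and 168 pericytes and vascular smooth muscle cells, 522 and 208 macrophages, and 698 and 457 T cells. NK cells number 50 in Ctrl and 14 in AD, too few in AD to be compared.

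Some gates stand apart. The dFB markers themselves were far lower in AD dFBs, with a median summed level of 10992 CPM per cell against 42767 CPM in Ctrl. Only 23 AD cells met the suprabasal KC gate, and their median level of suprabasal markers was 1684 CPM (39672 CPM in Ctrl) beside 1718 CPM of basal markers, so the label is weak in AD. Hair follicle matrix and inner sheath cells were found in Ctrl only (277 cells against 0), and adipocytes in AD only (97 cells against 0). The erythroid gate is left out of the comparisons between conditions and with dFBs, since its AD cells carried dFB markers at 60.8% of the dFB level.

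The sequences in front of 5 of the genes are shown because the members are known to share regulatory elements. RefSeq windows (GRCm38.p6) were at hand for 8 of the 10 genes, all but Tap2 and Nlrc5. Shown are the 180 bases before the RefSeq start of B2m (chr2:122147507-122147686, plus strand), of H2-D1 (chr17:35262914-35263093, plus strand) and of a start of H2-K1 (chr17:34000334-34000513, minus strand), and the 225 bases between the divergent starts of Tap1 and Psmb9 (chr17:34187331-34187555, plus strand, the strand of Tap1). Capitals mark 4 words on either strand, which are AANNGAAA (core of interferon-response elements), GGGATTCC (a kappa B-type word), TGACG (core of the site for CREB and ATF factors) and CCAAT (bound by NF-Y).
B2m: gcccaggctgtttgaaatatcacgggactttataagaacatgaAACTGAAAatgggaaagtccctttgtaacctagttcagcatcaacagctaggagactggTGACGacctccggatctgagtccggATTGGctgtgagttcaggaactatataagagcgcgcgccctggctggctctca
H2-D1: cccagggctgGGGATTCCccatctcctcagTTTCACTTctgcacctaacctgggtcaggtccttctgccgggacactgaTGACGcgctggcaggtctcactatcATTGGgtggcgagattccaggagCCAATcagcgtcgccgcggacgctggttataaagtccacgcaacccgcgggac
H2-K1: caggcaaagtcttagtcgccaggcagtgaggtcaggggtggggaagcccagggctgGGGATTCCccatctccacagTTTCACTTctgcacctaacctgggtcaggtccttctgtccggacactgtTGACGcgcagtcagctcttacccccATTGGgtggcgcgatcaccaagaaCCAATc
Tap1 and Psmb9: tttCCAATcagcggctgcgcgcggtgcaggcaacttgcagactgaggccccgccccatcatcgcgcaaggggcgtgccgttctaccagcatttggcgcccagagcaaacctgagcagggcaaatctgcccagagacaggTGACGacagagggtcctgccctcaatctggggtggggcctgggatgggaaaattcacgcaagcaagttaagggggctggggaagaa
The H2-D1 and H2-K1 stretches both hold all 4 words in the same order, and their best local alignment has 118 identical and 15 mismatched bases with 1 gap. B2m lacks the exact word GGGATTCC, and of these 4 words the stretch shared by Tap1 and Psmb9 holds TGACG and CCAAT only. Other forms of kappa B-type sites were not searched for in any stretch, so their absence cannot be read from this. Among 32851 windows of 250 upstream bases, AANNGAAA occurs in 21.3%, GGGATTCC in 0.89%, TGACG in 17.8% and CCAAT in 33.9%. Such matches describe the letters only. GENCODE M21 also lists transcripts of H2-D1, H2-K1 and Psmb9 whose first exon covers part of these stretches. Its start of B2m (122147686) is the last base of the B2m stretch, and that of Tap1 (34187553) lies just inside the shared one.

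In that annotation, 8 of the genes lie on chromosome 17. They are H2-K1 (33996017-34000347), Tapbp (33915899-33929292), Psmb9 (34181987-34187764), Tap1 (34187553-34197225), Psmb8 (34197721-34201454), Tap2 (34203527-34216321), H2-D1 (35262730-35267499) and H2-T23 (36029773-36032855). B2m is on chromosome 2 (122147686-122153083) and Nlrc5 on chromosome 8 (94434356-94527272). The annotation used for the counts may differ in detail. H2 genes resemble each other, and reads that fit several of them equally were not counted. For 9 genes no 90-base stretch near the 3′ end recurred in another gene's transcripts, and for H2-T23 3 of 16 stretches did (18.8%, in Hook2 and Rab33b).

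In Ctrl skin, NK cells, DCs or macrophages had the highest level of 8 of the 10 genes, and the hair follicle matrix had the lowest of 8. The exceptions at the top were H2-T23, highest in lymphatic endothelial cells, and Tap2, highest in blood endothelial cells (70.7 CPM). At the low end, Tap1 was lower in pericytes (10.9 CPM) than in the follicle matrix (15.5 CPM) with overlapping intervals, and Nlrc5 had no UMI in satellite cells. B2m stood at 3376 CPM (95% interval 3163-3599) in NK cells, 2945 CPM (2880-3010) in macrophages, 2042 CPM (1989-2096) in T cells and 1848 CPM (1773-1926) in dendritic cells (DCs). Mast cells (1370 CPM), blood endothelial cells (1359 CPM) and lymphatic endothelial cells (1354 CPM) followed with overlapping intervals. dFBs came next at 1181 CPM (1171-1190), above suprabasal KCs (915 CPM), Schwann cells (854 CPM), melanocytes (764 CPM) and basal KCs (595 CPM). Pericytes and vascular smooth muscle cells (430 CPM) and satellite cells (318 CPM) were lower still. The order of H2-K1 was similar at its ends, with 2786 CPM in NK cells and 74.9 CPM in the follicle matrix, but suprabasal KCs (779 CPM, 760-797) stood above dFBs (602 CPM, 595-609). Mast cells lay below dFBs for H2-D1 (580 against 638 CPM) and H2-K1 (562 against 602 CPM), with overlapping intervals for both. H2-T23 in lymphatic endothelial cells stood at 309 CPM (285-335), an interval that overlaps that of DCs at 279 CPM.

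**Figure D1:**
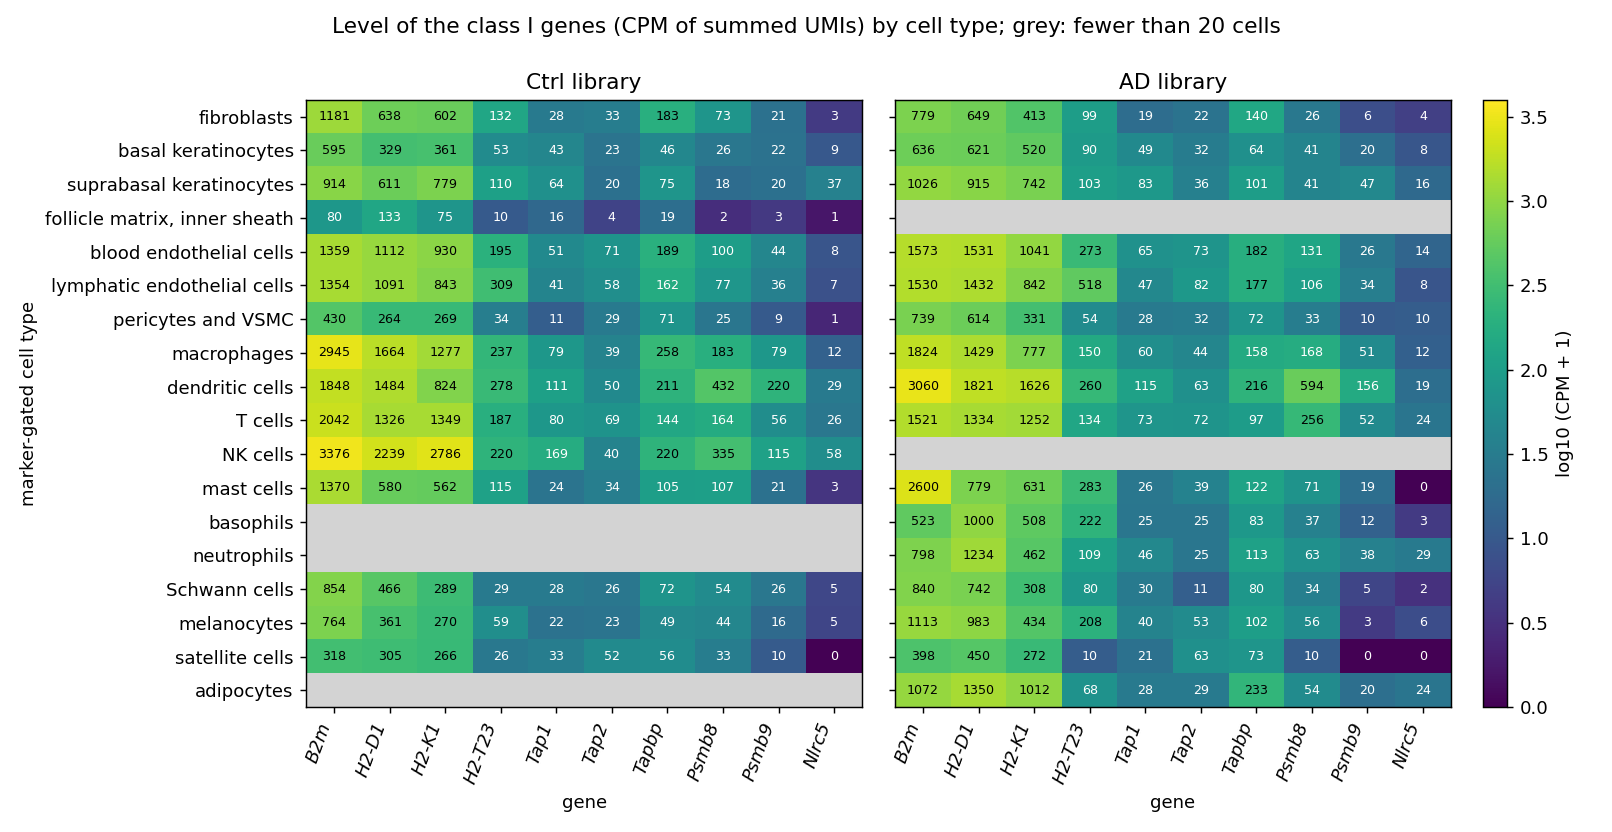
Levels of the 10 genes (columns) in each marker-gated cell type (rows) of the Ctrl and AD libraries, printed in CPM and coloured by log10 of CPM with 1 added; grey marks gates with fewer than 20 cells. Ctrl follicle matrix cells sit lowest for B2m at 79.6 CPM, and Ctrl NK cells highest at 3376 CPM.

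Against dFBs of the same library, macrophages, DCs, T cells and NK cells were higher in most of the genes, and mast cells, basophils and neutrophils in fewer. In Ctrl, macrophages were higher in 7 of 10 genes (15.5% of all genes were), DCs in 6 of 10 (14.0%), T cells in 7 of 10 (21.0%) and NK cells in 7 of 10 (22.3%), and none was called lower. The median log2 ratios of the 10 genes were 1.31, 1.14, 1.10 and 1.99, beside -0.08, -0.26, 0.14 and 0.03 over all genes. Psmb8 reached 432 CPM in DCs and 335 CPM in NK cells, with overlapping intervals, against 73.5 CPM in dFBs. In AD, macrophages were higher in 6 of 10 (17.4% of all genes), DCs in 9 of 10 (15.7%) and T cells in 7 of 10 (19.6%). Ctrl mast cells were higher in 0 of 9 genes (18.7% of all genes) with a median of -0.10, and AD mast cells in 4 of 9 (21.0%). AD basophils were higher in 1 of 9 (12.7%) and AD neutrophils in 4 of 10 (16.3%).

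The follicle matrix and inner sheath, the cells that build the hair shaft and its sheath, had the lowest level of most class I transcripts. B2m gave 374 UMIs in 277 cells, or 79.6 CPM (71.8-88.1), and a UMI in 62.8% of cells although their median depth of 16423 UMIs was above that of dFBs (8963 UMIs, where 96.8% of cells had one). H2-D1 stood at 133 CPM, H2-K1 at 74.9 CPM, H2-T23 at 9.58 CPM and Tapbp at 18.9 CPM. Psmb8 gave 9 UMIs (1.92 CPM), Psmb9 14 UMIs and Nlrc5 3 UMIs. Relative to dFBs, 8 of 9 tested genes were lower (25.3% of all genes were), with a median log2 ratio of -2.99 beside 0.21 over all genes. The log2 ratio was -3.87 for B2m and -4.68 for Psmb8, and -0.83 for Tap1, the only gene not called. Across alternatives it ranged from -4.2 to -2.3 for B2m and from -4.9 to -2.7 for Psmb8. The gate's own markers had a median of 904 CPM per cell, beside 636 CPM of dFB and 433 CPM of basal KC markers. The dFB markers stood there at 2.12% of the dFB level, and RNA from dFBs in that amount would carry 25.1 CPM of B2m and 1.56 CPM of Psmb8. Their part in the result was not tested.

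Detection per cell was also compared at equal depth. After every Ctrl cell was thinned to 1000 UMIs, B2m had a UMI in 93.6% of NK cells, 90.8% of macrophages, 84.7% of T cells, 77.1% of blood endothelial cells, 61.2% of dFBs, 57.5% of suprabasal KCs, 36.0% of basal KCs and 7.94% of follicle matrix cells. Shallower cells were left out, which kept 5087 of 5155 Ctrl and 4032 of 4105 AD dFBs, 691 of 698 and 454 of 457 T cells, 501 of 522 Ctrl macrophages, 1365 of 1391 Ctrl basal KCs and 47 of 50 Ctrl NK cells. Unthinned, the share was 99.2% in macrophages (median depth 4678 UMIs) and 84.0% in basal KCs (12864 UMIs). Psmb8 had a UMI in 34.8% of thinned Ctrl DCs, 14.8% of macrophages, 7.43% of dFBs, 2.93% of basal KCs and 0.361% of follicle matrix cells, the lowest of these and the closest at hand to a background from stray RNA. Nlrc5 was found in 41.6% of suprabasal KCs (median depth 17969 UMIs), 8.84% of basal KCs, 9.31% of T cells and 2.87% of dFBs in Ctrl before thinning, and in 3.85%, 0.220%, 3.18% and 0.236% after it. The thinned shares of basal KCs and dFBs are thus alike for Nlrc5 where the CPM are not (8.82 and 3.06 CPM), and no order is read from them.

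Between the KC gates of Ctrl, the levels differed gene by gene. The gates rest on keratins and a few other markers and may not be purely interfollicular. Clusters, an alternative to the gates, point to this. Those named basal KCs by the same markers had Krt17 and Sox9 or Scd1 and Elovl6 among their leading genes, and a suprabasal one Krt79. Suprabasal KCs, which are leaving the basal layer to cornify, had higher levels than basal KCs for B2m (915 against 595 CPM), H2-D1 (611 against 329 CPM) and H2-K1 (779 against 361 CPM). They were also higher for H2-T23 (110 against 53.0 CPM), Tap1 (63.6 against 43.5 CPM), Tapbp (74.5 against 46.1 CPM) and Nlrc5 (37.4 against 8.82 CPM), with intervals apart in all 7. Psmb8 went the other way, at 17.8 CPM (15.1-20.9) against 25.7 CPM (23.5-28.1), while the intervals of Tap2 and of Psmb9 overlapped. Nlrc5 in suprabasal KCs was thus among the highest of any type, beside 3.06 CPM in dFBs. Against dFBs, basal KCs were lower for 3 of 9 tested genes (18.6% of all genes), namely H2-T23 (-1.30 on the log2 scale), Tapbp (-1.96) and Psmb8 (-1.48).

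In AD dFBs, the immunoproteasome subunits were lower than in Ctrl dFBs, and H2-D1 was not. Psmb8, the subunit with chymotrypsin-like activity, had 3646 UMIs in Ctrl and 872 UMIs in AD, or 73.5 CPM (71.1-75.9) and 26.5 CPM (24.7-28.3), a log2 ratio of -1.44 (-1.58 to -1.37). Psmb9 had 1051 and 210 UMIs, or 21.2 CPM (19.9-22.5) and 6.37 CPM (5.54-7.30), a log2 ratio of -1.59 (-1.95 to -1.52). These 2 of 9 tested genes were called lower (11.7% of all genes were) and 0 of 9 higher (6.94% of all genes). The interval of a ratio is that of the UMIs without the added CPM, so that a low gene can lie near its edge. The share of dFBs with a UMI of Psmb8 was 41.9% in Ctrl and 17.6% in AD, and 7.43% and 2.88% after every cell was thinned to 1000 UMIs. For Psmb9 these shares were 16.3% and 4.65%, and 2.00% and 0.694% after thinning.

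The chains and the loading genes differed less between the dFBs. B2m had 1181 CPM among Ctrl dFBs and 779 CPM (769-789) among AD dFBs, a log2 ratio of -0.60 (-0.62 to -0.58), and had a UMI in 96.8% and 94.0% of cells. H2-K1 was at 602 and 413 CPM (-0.54), H2-T23 at 132 and 98.8 CPM (-0.42), Tap1 at 28.5 and 18.5 CPM (-0.60), Tap2 at 32.7 and 22.3 CPM (-0.53) and Tapbp at 183 and 141 CPM (-0.38). These 6 ratios were below 0 and short of the 2-fold call. H2-D1 alone was level over all dFBs together, at 638 CPM (631-645) and 649 CPM (641-658), a log2 ratio of 0.02 (-0.00 to 0.05). The median over the 9 genes was -0.54, beside -0.05 over all genes in dFBs. Nlrc5 was under the minimum, at 3.06 and 3.79 CPM.

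**Figure D2:**
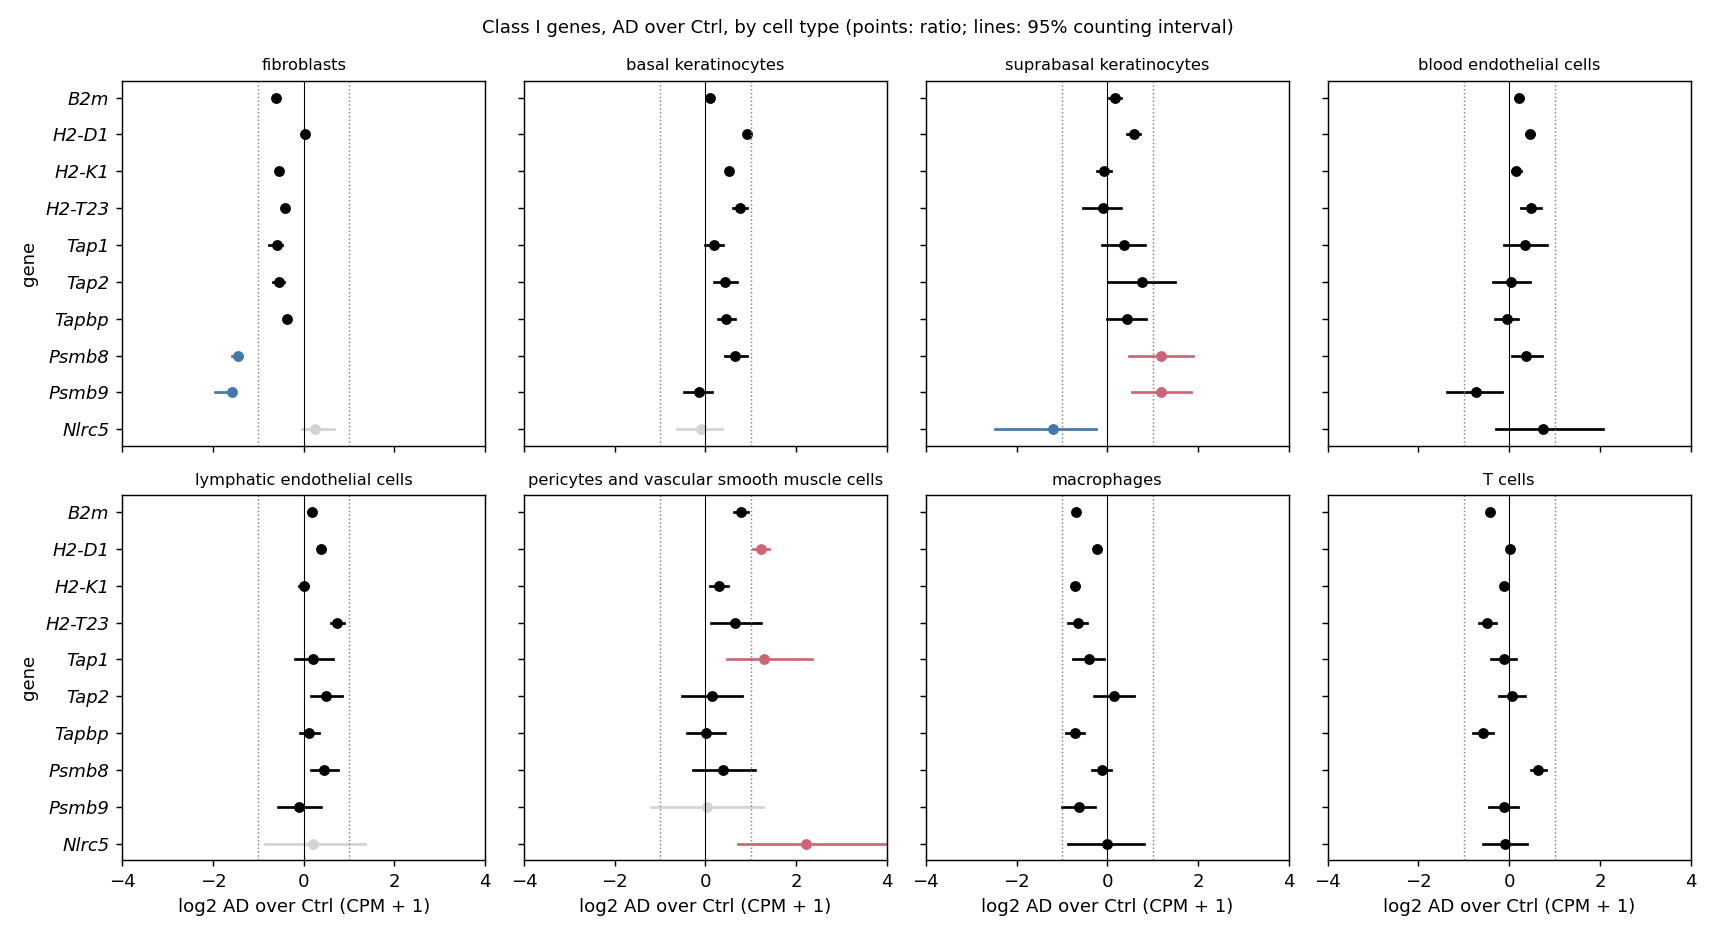
Log2 ratio of CPM with 1 CPM added, AD over Ctrl, for each gene in 8 cell types (points), with 95% counting intervals as bars and dotted lines at the 2-fold call; blue and red points are called lower and higher, grey ones are under the minimum level, and the interval of Nlrc5 in pericytes runs past the axis. In dFBs Psmb8 (-1.44) and Psmb9 (-1.59) lie below the lower line, while H2-D1 lies at 0.02.

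The share of each library's UMIs that came from dFBs differed accordingly. dFBs gave 54.4% of the Ctrl library's B2m UMIs and 44.6% of the AD library's, while they made up 45.2% and 50.2% of the cells. For Psmb8 they gave 53.4% in Ctrl and 23.5% in AD, and for Psmb9 39.0% and 21.4%. Cd74, a class II gene that macrophages express highly, stood at 99.0 CPM in Ctrl dFBs against 20.8 CPM in AD dFBs. If all of it came from macrophages, their RNA would carry 1.48 CPM of Psmb8 in Ctrl and 0.596 CPM in AD, and 0.642 and 0.182 CPM of Psmb9. Its part in the result was not tested.

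The lower immunosubunits were seen in 4 of the 5 dFB subsets with enough cells. Dpp4-positive interstitial dFBs (2020 Ctrl and 1355 AD cells) had Psmb8 at 73.5 and 26.9 CPM (-1.42) and Psmb9 at 24.7 and 6.03 CPM (-1.87), and were called lower in those 2 of 9 genes (10.9% of all genes). Areg dFBs, named for adipogenesis-regulating stroma (178 and 592 cells), had Psmb8 at 59.3 and 23 CPM (-1.33) and Psmb9 at 25.5 and 5.43 CPM (-2.04), again 2 of 9 (12.7%). Peri-follicular papillary dFBs (646 and 380 cells) had Psmb8 at 97.0 and 31.5 CPM (-1.59) and Psmb9 at 24.5 and 6.15 CPM (-1.83), 2 of 9 (11.0%), while their H2-D1 was at 687 and 963 CPM (0.49). Reticular preadipocyte-like dFBs (550 and 448 cells) were called lower in 4 of 9 genes (11.9%), with Psmb8 at 95.5 and 21.9 CPM (-2.08), Psmb9 at -1.77, Tap2 at -1.32 and Tapbp at -1.01.

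The fifth subset, the Acta2 Lrrc15 dFBs, differed in its Ctrl level. In Ctrl (517 cells) it had the lowest level of these 5 subsets, with B2m at 330 CPM against 976 to 1567 CPM in the other 4 and Psmb8 at 17.7 CPM. Only 28 AD cells met its gate, in which H2-D1 (141 and 715 CPM, 2.33) and H2-K1 (167 and 342 CPM, 1.03) were higher, 2 of 8 tested genes (17.0% of all genes were). Those AD values rest on 163 and 78 UMIs. H2-D1, level over all dFBs together, was thus higher in AD in the Acta2 Lrrc15 and papillary dFBs. It was lower, short of 2-fold, in interstitial (789 and 604 CPM, -0.385), Areg (624 and 555 CPM, -0.17) and reticular dFBs (686 and 591 CPM, -0.21). Whether the subsets differ in their ratios was not tested.

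**Figure D3:**
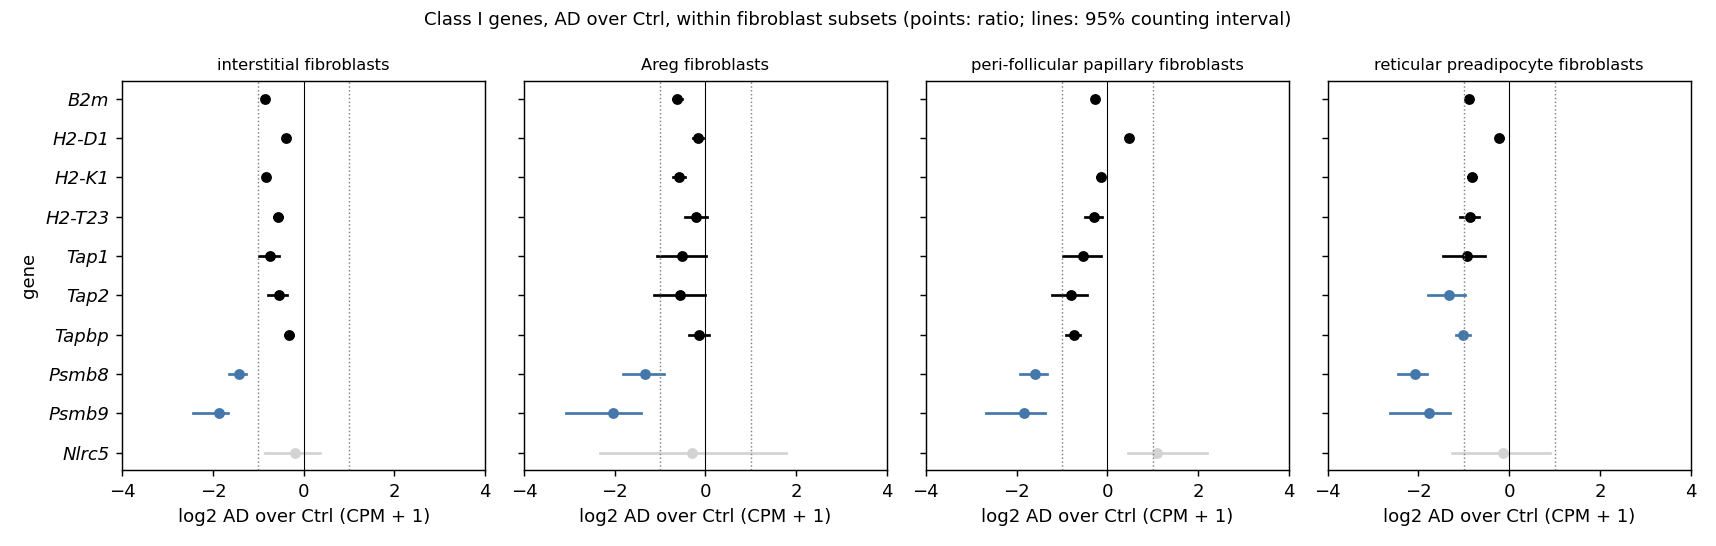
Log2 ratio of CPM with 1 CPM added, AD over Ctrl, for each gene in 4 dFB subsets (points), with 95% counting intervals as bars and dotted lines at the 2-fold call; blue points are called lower and grey ones are under the minimum level. Psmb8 is lower in AD in interstitial (-1.42), Areg (-1.33), papillary (-1.59) and reticular (-2.08) dFBs.

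Set against the constitutive subunit it replaces, Psmb8 made up less of the pair in AD dFBs. Psmb8 gave 52.3% (51.1-53.4) of the UMIs of Psmb8 and Psmb5 in Ctrl dFBs and 31.0% (29.3-32.8) in AD dFBs. Psmb9 gave 19.8% of the UMIs of Psmb9 and Psmb6 in Ctrl and 9.24% in AD. The constitutive subunits were not called, at log2 ratios of -0.19 (Psmb5), -0.45 (Psmb6) and -0.09 (Psmb7). The share of Psmb8 was 72.6% (69.0-75.9) and 58.9% (54.5-63.1) in macrophages, from 489 and 312 UMIs of Psmb8 and 185 and 218 of Psmb5. The level of Psmb8 itself differed little there, at 183 and 168 CPM with overlapping intervals. The share was higher in AD in basal KCs, at 13.0% and 21.0% (18.6-23.6), and in T cells, at 63.6% and 70.9%, with intervals apart in both. In blood endothelial cells (62.1% and 65.5%) and lymphatic endothelial cells (53.2% and 57.3%) the intervals overlapped. DCs held the highest share among the types named here, at 82.0% and 86.7%, and the Ctrl follicle matrix the lowest at 0.917% (0.420-1.73). Shares set the UMIs of a pair of genes side by side and are not ratios of their proteins.

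**Figure D4:**
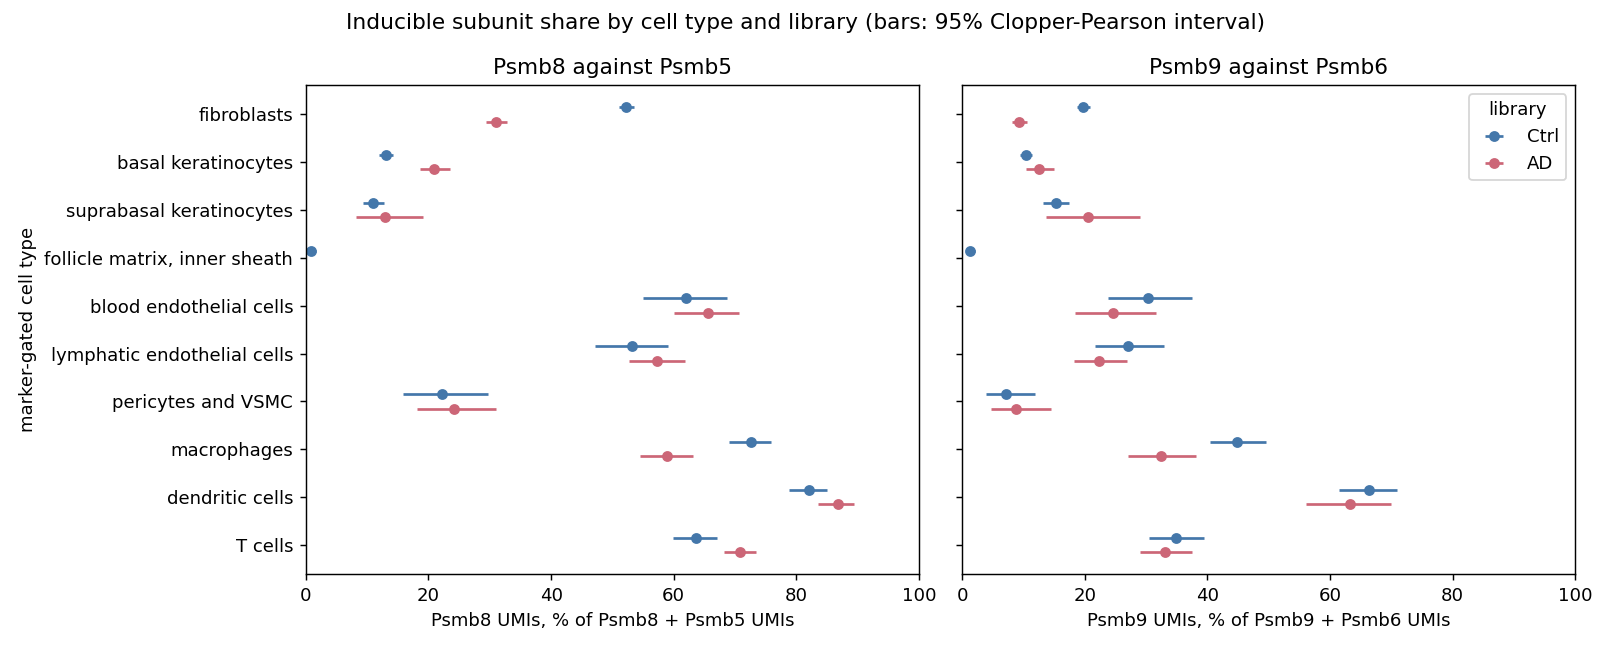
Share of the immunosubunit among the UMIs of each immunosubunit and constitutive pair, in percent, by cell type and library, with 95% Clopper-Pearson intervals. For Psmb8 and Psmb5, dFBs go from 52.3% in Ctrl to 31.0% in AD and T cells from 63.6% to 70.9%.

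In basal KCs, the stem and progenitor layer of the epidermis, 8 of 9 ratios were above 0 and none reached 2-fold. H2-D1 measured 329 CPM (321-337) without and 621 CPM (601-643) with MC903, a log2 ratio of 0.92 (0.86 to 0.98). H2-T23 was at 53.0 and 89.7 CPM (0.75), Psmb8 at 25.7 and 41.1 CPM (0.66, interval 0.44 to 0.91), H2-K1 at 361 and 521 CPM (0.53), Tapbp at 46.1 and 63.8 CPM (0.46) and B2m at 595 and 636 CPM. Tap1 had 43.5 and 49.4 CPM (0.18), and Psmb9 had 21.8 and 19.5 CPM (-0.15). No gene was called, higher (4.82% of all genes) or lower (10.9%), and the median was 0.46 beside -0.19 over all genes. dFB markers stood at 3.20% of the dFB level in both libraries.

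The suprabasal gate rests on 23 AD cells with many basal markers. There Psmb8 was at 17.8 and 41.4 CPM (155 and 21 UMIs, 1.17 with interval 0.48 to 1.88) and Psmb9 at 20.4 and 47.3 CPM (177 and 24 UMIs, 1.18 with interval 0.54 to 1.84), 2 of 10 genes called higher (20.5% of all genes were). Nlrc5 was lower, at 37.4 and 15.8 CPM (325 and 8 UMIs, -1.19 with interval -2.47 to -0.25), 1 of 10 genes (11.5%). The AD level of Psmb8 in this gate, 41.4 CPM, lay next to that of AD basal KCs at 41.1 CPM, and the basal markers move with this comparison. Their part in the result was not tested.

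Endothelial cells, which line the vessels, had no gene past 2-fold. In blood endothelial cells 8 of 10 ratios were above 0, with H2-D1 at 1112 and 1531 CPM (0.46), H2-T23 at 195 and 273 CPM (0.48), B2m at 1359 and 1573 CPM (0.21) and Psmb8 at 100 and 131 CPM (0.38, interval 0.06 to 0.71). Psmb9 was at 44.5 and 26.4 CPM (-0.73, interval -1.36 to -0.16). Of 10 genes 0 were called higher (4.19% of all genes) and 0 lower (12.0%), and the median was 0.28 beside -0.18. In lymphatic endothelial cells 0 of 9 were called higher (3.65%) or lower (10.2%), with H2-T23 at 309 CPM (285-335) and 518 CPM (490-547), a log2 ratio of 0.74, H2-D1 at 1091 and 1432 CPM (0.39) and H2-K1 at 843 and 842 CPM. Beside dFBs of the same library, blood endothelial cells were 2-fold higher in 2 of 9 genes in Ctrl (16.6% of all genes) and 9 of 10 in AD (14.0%). Lymphatic endothelial cells were higher in 1 of 9 in Ctrl (14.0%) and 7 of 9 in AD (14.1%). Both the vessel and the dFB levels enter these counts.

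Pericytes and vascular smooth muscle cells, the contractile cells around vessels, had low Ctrl levels and higher AD levels. H2-D1 rose from 264 CPM (237-292) to 614 CPM (573-657), a log2 ratio of 1.22, Tap1 from 10.9 to 28.2 CPM (15 and 38 UMIs, 1.30) and Nlrc5 from 1.45 to 10.4 CPM (2 and 14 UMIs, 2.22). These were 3 of 9 tested genes (5.75% of all genes), and all 9 ratios were above 0. B2m was at 430 and 739 CPM (0.78), and Psmb8 at 24.6 and 32.6 CPM with overlapping intervals. The dFB markers stood at 4.79% of the dFB level in Ctrl and 14.7% in AD, the highest single marker at 74.5% in AD. RNA from dFBs at the summed share would carry 95.2 CPM of H2-D1 and 2.72 CPM of Tap1 in AD, and its part in the result was not tested.

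Among leukocytes, macrophages and T cells had no gene past 2-fold. In macrophages 9 of 10 ratios were below 0, with B2m at 2945 and 1824 CPM (-0.69), H2-K1 at 1277 and 777 CPM (-0.72), Tapbp at 258 and 158 CPM (-0.70), H2-T23 at 237 and 150 CPM (-0.65) and Psmb9 at 79.2 and 51.2 CPM (-0.62). H2-D1 was at 1664 and 1429 CPM (-0.22), and Psmb8 at 183 and 168 CPM with overlapping intervals. None was called higher (5.41% of all genes) or lower (10.4%), and the median was -0.51 beside -0.07 over all genes.

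In T cells Psmb8 stood apart from the other genes. The T cell gate was not split. Clusters named T cells by the same markers had unlike leading genes, such as Icos and Ctla4, Il17a, or Trdc. Whether their mix differs between the libraries was not examined. Psmb8 had 456 UMIs in Ctrl and 812 UMIs in AD, or 165 CPM (150-180) and 256 CPM (239-274), a log2 ratio of 0.64 (0.47 to 0.81). A UMI was found in 39.7% and 65.0% of cells, at median depths of 3151 and 5643 UMIs, and in 15.3% and 18.1% after thinning to 1000 UMIs. B2m was at 2042 and 1521 CPM (-0.42), H2-T23 at 187 and 134 CPM (-0.48), Tapbp at 144 and 96.5 CPM (-0.57), and H2-D1 level at 1326 and 1334 CPM. Of 10 genes 0 were called higher (2.64% of all genes) or lower (9.98%), and the median was -0.11 beside -0.21. DCs, with 143 Ctrl and 55 AD cells from several clusters, had B2m at 1848 and 3060 CPM (0.73), H2-K1 at 824 and 1626 CPM (0.98), Psmb8 at 432 and 594 CPM and Psmb9 at 220 and 157 CPM. None of their 10 genes was called higher (16.4% of all genes) or lower (14.5%). The Ctrl DC gate was weakly marked, with a median of 1170 CPM of DC markers per cell against 3509 CPM in AD. A stricter gate kept 51 Ctrl and 31 AD DCs. Across alternatives, the log2 ratio of Ctrl DCs over dFBs ranged from 0.55 to 2.15 for B2m and from 0.36 to 1.97 for H2-K1. In AD it ranged from 1.39 to 2.58 and from 1.45 to 2.55. The Ctrl and AD ranges overlap for both genes, and the ratio of AD over Ctrl DCs was not rerun with these alternatives.

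Mast cells (146 Ctrl and 50 AD cells) had H2-T23 at 115 and 283 CPM (1.29), 1 of 9 genes called higher (13.1% of all genes), and B2m at 1370 and 2600 CPM (0.92). The neural crest cells were few, with 110 AD Schwann cells and 78 AD melanocytes. Melanocytes, the pigment cells, were higher in 4 of 9 genes (13.6% of all genes), H2-D1 at 361 and 983 CPM (1.44), H2-T23 at 58.5 and 208 CPM (1.81), Tap2 at 1.14 and Tapbp at 1.04. They were lower in Psmb9 (21 and 1 UMIs, -2.08), 1 of 9 (23.4%). Schwann cells, the glia of peripheral nerves, were higher in H2-T23 (29.3 and 79.9 CPM, 1.42), 1 of 9 (9.19%), and lower in Tap2 (21 and 5 UMIs, -1.10) and Psmb9 (21 and 2 UMIs, -2.26), 2 of 9 (17.5%). dFB markers were at 4.39% and 15.3% of the dFB level in melanocytes and 9.35% and 18.5% in Schwann cells, and their part was not tested.

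Across 13 cell types with at least 20 cells in both libraries, the genes did not move as a block. The ratio of H2-D1 was above 0 in 12 of 13 types, all but macrophages, while that of Psmb9 was above 0 in 2 of 13, suprabasal KCs and pericytes. Only signs are counted, and H2-D1 was level in dFBs (0.02) and T cells (0.01). Psmb9 was under the minimum level in pericytes (0.03, 13 UMIs in both libraries). In mast cells, melanocytes, Schwann cells and satellite cells it had 3, 1, 2 and 0 AD UMIs. Psmb8 had a higher ratio than Psmb9 in 11 of 13 types, the exceptions being mast cells and suprabasal KCs. The types share the 2 libraries, so these counts describe the libraries and are not 13 independent observations.

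H2-D1 took a larger part of the classical heavy chain UMIs in AD. Its share of the H2-D1 and H2-K1 UMIs was 51.5% (51.1-51.9) in Ctrl dFBs and 61.1% (60.6-61.6) in AD dFBs. It was 47.7% and 54.4% in basal KCs, 54.5% and 59.5% in blood endothelial cells, 56.4% and 63.0% in lymphatic endothelial cells, 49.5% and 65.0% in pericytes, and 56.6% and 64.8% in macrophages. The share was higher in AD in 12 of 13 types, and lower in DCs at 64.3% (62.5-66.1) and 52.8% (50.9-54.7). In T cells, at 49.6% and 51.6%, and in mast and satellite cells the intervals overlapped. In the 4 dFB subsets other than the Acta2 Lrrc15 dFBs it went from between 50.5% and 56.6% to between 58.1% and 63.9%. The upstream stretches of these genes are printed above and share most of their letters. How uniquely mapped reads divide between such similar genes can also touch these shares.

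**Figure D5:**
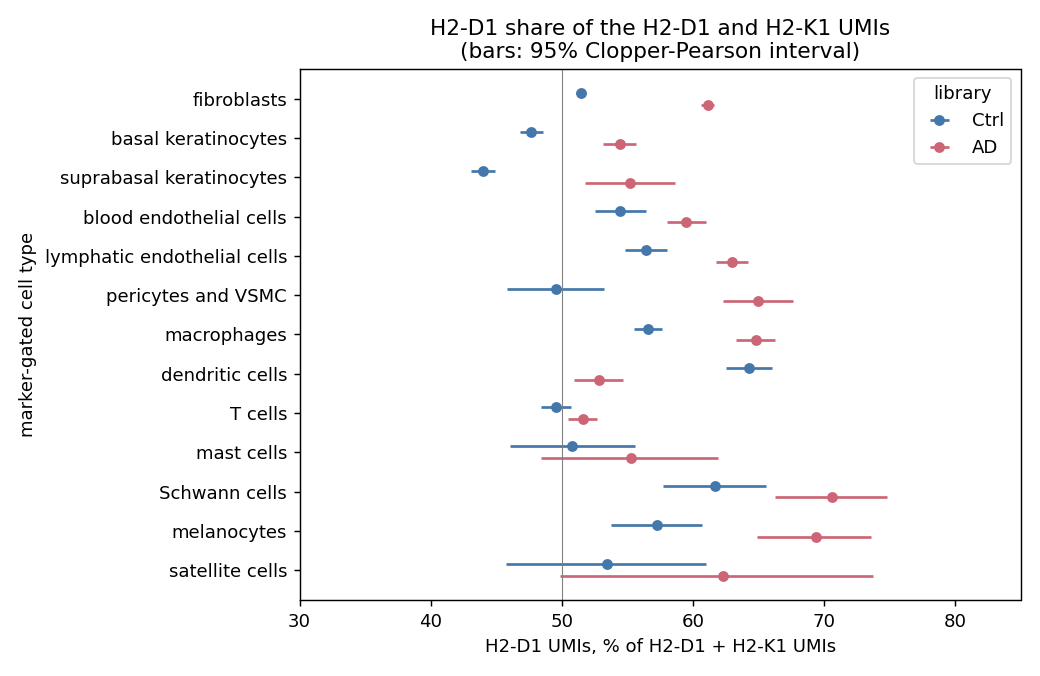
Share of H2-D1 among the UMIs of H2-D1 and H2-K1 in percent, by cell type, for the Ctrl and AD libraries, with 95% Clopper-Pearson intervals. The AD point is to the right of the Ctrl point in all 13 types except DCs, where it goes from 64.3% to 52.8%.

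Other genes of the pathway were counted in the same way. Of all genes, 6.94% were called higher and 11.7% lower in dFBs. These shares were 4.82% and 10.9% in basal KCs, 20.5% and 11.5% in suprabasal KCs, and 4.19% and 12.0% in blood endothelial cells. In macrophages they were 5.41% and 10.4%, and in T cells 2.64% and 9.98%. In dFBs, all 3 remaining interferon-inducible proteasome genes were lower, the immunosubunit Psmb10 at 40.9 and 15.9 CPM (-1.31) and the activator subunits Psme1 (113 and 54.0 CPM, -1.05) and Psme2 (75.7 and 32.3 CPM, -1.20), while 0 of the 3 constitutive subunits were. Of 9 tested other heavy chains, H2-Q4 (183 and 374 CPM, 1.03), H2-Q10 (1.25) and the lipid-presenting Cd1d1 (5.0 and 21.3 CPM, 1.89) rose and H2-T22 (67.8 and 29.8 CPM, -1.16) fell. Of 7 loading and trimming genes Pdia3, a disulfide isomerase of the loading complex, fell (-1.18). None of 5 tested interferon and receptor genes was called (Ifngr1 at 0.33), and none of 9 class I receptor genes had enough UMIs. All 4 tested class II genes fell, Cd74 by 2.20, H2-Aa by 1.70, H2-Ab1 by 2.14 and H2-Eb1 by 2.06 on the log2 scale. The Ctrl level of Cd74 in dFBs was only 0.81% of that in macrophages. Cd74 was as low and also lower in AD in basal KCs (69.0 and 5.90 CPM) and pericytes (142 and 3.71 CPM). The part of stray RNA in the class II values of these and other gates, T cells included, was not tested.

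In basal KCs H2-Q4 (1.14) and the transcription factor Irf1 (1.04) rose, and Pdia3 (-1.20) and all 4 tested class II genes fell, Cd74 at -3.34 among them. In suprabasal KCs Fcgrt (2.39), Irf1 (1.80), Rela (1.33) and Ifnar2 (2.70) were higher in the 23 AD cells, and the 4 class II genes were lower on at most 1 AD UMI each. In blood endothelial cells Tapbpl (-1.32), Psme2 (-1.01), Irf9 (-1.03) and Rfx5 (-1.30) fell, and the class II genes Cd74 (1.23) and H2-Aa (1.62) rose. In macrophages the genes called were all lower, among them H2-T24 (-2.16), Fcgrt (-1.58), Pdia3 (-1.05), Stat2 (-1.03), Ifnb1 (-2.51), Klrd1 (-1.21), Klrk1 (-1.85), Cd74 (-1.06), H2-Eb1 (-1.02) and the class II transactivator Ciita (-1.10). In the unsplit T cell gate Ifng, the gene of interferon gamma, had 300 UMIs in Ctrl and 162 in AD (-1.07). Cd8a, the co-receptor for class I, had 294 and 115 there (-1.52), and the mix of T cells was not examined. Fcgrt (-1.39), Canx (-1.13), Pdia3 (-1.09) and the class II genes Cd74 (-1.66), H2-Aa (-2.34), H2-Ab1 (-2.40) and H2-Eb1 (-2.35) were lower there too.

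Over 33 pairs of cell type and library, in which the erythroid gates were kept, the genes outside these lists most like the mean profile of the 10 members were Smap2 (Pearson r 0.763), Apobec3 (0.762), St8sia4 (0.752), Abcg1 (0.745) and Sp110 (0.745), out of 9672 genes. Among the members themselves r with the mean was 0.952 for H2-K1, 0.935 for H2-D1, 0.922 for B2m and Psmb8, 0.710 for Nlrc5 and 0.660 for Tap2. These values describe likeness of level only, since the pairs share libraries.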

How the data were processed

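Single-cell RNA-seq (10x 3′ v3.1) of digested mouse dorsal skin was analysed in 1 Ctrl and 1 AD library. The authors deposited raw UMI counts per gene and barcode, made by Cell Ranger with mm10 and without normalization. The version is 5.0.0 in the file header and 3.1.0 in the submitters' processing notes, which also name Seurat 5.0, and the methods name a later one. The members and gene lists were chosen with earlier results of these data known.

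Kept cells had between 200 and 6000 genes and no more than 10% mitochondrial UMIs, as in the study's methods. Each was given the type whose marker list it expressed most, and 1 of 133 markers (Krt85) had no row. UMIs were summed per type and library (at least 20 cells) and scaled to CPM. Ratios are log2 with 1 CPM added, called at 2-fold where either side reached 10 CPM, on all genes. Intervals (95%) are exact Poisson for sums, Clopper-Pearson for shares and conditional binomial for ratios. With 1 library per condition they cover counting error only. Doublets were kept, and leaving them out was an alternative, as were Leiden clusters in place of gates. All 10 members, the listed pathway genes past 2-fold in dFBs, KCs, blood endothelial cells, macrophages or T cells (for a list with none, its member with the most UMIs), and the 5 genes most like the mean profile (log2 of CPM with 10 added) were named, except for an item that is not reported here. The scripts were tested on simulated data. Tools were Python 3.11.15, numpy 2.4.6, scipy 1.17.1, pandas 2.3.3, scanpy 1.11.5, anndata 0.12.19, leidenalg 0.10.2, scikit-learn 1.9.0, biopython 1.88 and matplotlib 3.10.9.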

Additional observations from a re-analysis of the deposited data

Results flagged for a closer look

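The ratio of AD over Ctrl went in opposite directions in different cell types for 3 genes, each with 1 library per condition, and none of these differences was tested. Psmb8 had a log2 ratio of 1.17 in suprabasal KCs (21 AD UMIs) and -1.44 in dFBs. Psmb9 had 1.18 in suprabasal KCs (24 AD UMIs) and -1.59 in dFBs. Nlrc5 had 2.22 in pericytes and vascular smooth muscle cells (2 Ctrl and 14 AD UMIs) and -1.19 in suprabasal KCs (325 Ctrl and 8 AD UMIs). All 3 use the suprabasal gate, whose 23 AD cells carried many basal markers. In that gate 20.5% of all genes were called higher and 11.5% lower. There Psmb8 gave 10.95% and 12.96% of its pair with Psmb5, and Psmb9 15.25% and 20.51% of its pair with Psmb6, with overlapping intervals for both.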

How the results depend on the processing

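No paired analysis was possible because each condition has 1 library, and no library could be left out. The alternatives were run for AD over Ctrl in dFBs, KCs, vessel cells, macrophages, T cells and mast cells, and for the follicle matrix, macrophages, DCs, T cells and NK cells over dFBs, where 518 of 518 alternative values of 66 ratios past 2-fold kept their sign. They were not run for the dFB subsets, Schwann cells, melanocytes, DCs between the libraries, or KCs, endothelial cells and other leukocytes over dFBs. The 66 ratios were chosen for being past 2-fold, so their signs had little room to change. With smaller ratios included, 69 left their counting interval under Leiden clusters and 85 did not. These numbers were 52 and 112 with the mean of each cell's CPM, and 41 and 123 with median-ratio scaling. With at least 500 genes and 1000 UMIs they were 0 and 164. With at least 500 genes and 1000 UMIs per cell, and with the highest doublet scores left out (672 Ctrl and 481 AD cells, which was added after seeing the data since the caller had marked 395 Ctrl and 0 AD cells), no count of called genes moved by over 1.5 times. Other alternatives moved counts of called genes, whose reported values stand in brackets. The share of all genes called was worked out for the reported rule only. These counts therefore have no such share beside them, and they show dependence on the processing only. At a 1.5-fold call, 4 genes were lower in dFBs [2], 3 higher in basal KCs [0], 1 higher and 1 lower in blood endothelial cells [0 and 0], 1 higher in lymphatic endothelial cells [0], 5 higher in pericytes and vascular smooth muscle cells [3], 5 lower in macrophages [0], 1 higher in T cells [0], and 2 higher and 1 lower in mast cells [1 and 0]. With 10 CPM added, 1 was lower in dFBs, 0 lower and 0 higher in suprabasal KCs [1 and 2] and 1 higher in pericytes. With a minimum of 100 CPM, 0 were lower in dFBs, 0 lower and 0 higher in suprabasal KCs and 1 higher in pericytes, and against dFBs 5 were lower in the follicle matrix [8], 4 and 3 higher in Ctrl macrophages and T cells [7 and 7] and 3 and 3 in AD [6 and 7]. With Leiden clusters, 3 were higher in basal KCs, 0 lower in suprabasal KCs, 1 lower in macrophages and 2 higher in mast cells. With median-ratio scaling, 1 was higher in basal KCs and 3 higher in Ctrl T cells against dFBs. The stricter gate gave 1 lower in blood endothelial cells and 2 higher in mast cells, all deposited barcodes 1 lower in both types, the mean of each cell's CPM 1 lower in blood endothelial cells, and no minimum level 1 lower in mast cells. Fewer genes pass a 100 CPM minimum and a larger added CPM shrinks low genes by construction. For the rest the cause was not tested.

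In dFBs the log2 ratio ranged from -1.5 to -1.2 for Psmb8, from -1.75 to -0.93 for Psmb9 (with 10 CPM added the highest) and from -0.08 to 0.11 for H2-D1. The log2 factor of median-ratio scaling was -0.12 in T cells and 0.12 in satellite cells, and less than 0.1 in size in other types named here. AD levels are divided by this factor, so T cell ratios rose by 0.12. Satellite cell ratios were not rerun with it. Depth limits Nlrc5, Psmb9 and Tap1 in types with few cells.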

Other observations

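Cells present in a single library could not be compared. AD adipocytes (97 cells) had B2m at 1072 CPM, H2-D1 at 1350 CPM, H2-K1 at 1012 CPM, Tapbp at 233 CPM and Nlrc5 at 24.0 CPM (17.5-32.2), the last above the 3.79 CPM of AD dFBs, with Psmb8 at 19.1% (15.8-22.7) of the UMIs of Psmb8 and Psmb5. AD neutrophils (58 cells, against 9 in Ctrl) had H2-D1 at 1234 CPM and B2m at 798 CPM, and AD basophils (45 cells, against 7) H2-D1 at 1000 CPM and B2m at 523 CPM. In both H2-D1 was at the higher CPM, though 3′ tags do not give levels between genes.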
